A study of Mus musculus with 6 samples.

Results

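Expression of 10 genes of protein folding in the endoplasmic reticulum (ER) and of the export of collagen from it was followed in mesenchyme of the mouse fetal liver. The 10 genes, chosen by name from 54532 genes in the deposited table, were the ER chaperones Hspa5, Hsp90b1 and Pdia4, the transcription factors Xbp1, Creb3l1 and Creb3l2, the vesicle coat genes Sec23a and Sec24d, the cargo receptor Mia3 and the retrieval receptor Kdelr3. RNA came from livers of CD-1 mice of genotype Sm22-Cre/ROSA26RYFP at embryonic day 18 (E18, 3 libraries lettered A, B and C) and embryonic day 16 (E16, 3 libraries with the same letters). The cells of both days carried Cre under the Sm22 (Tagln) promoter, a smooth muscle promoter also used to mark liver mesenchyme, and were sorted after collagenase IV and Dispase dissociation, by the eYFP that Cre switches on from the Rosa26 locus. Whether the 3 libraries of each day represent different litters, animals or pools is not stated in the labels. The p-values therefore describe library-to-library spread, which can be technical.

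Secreted proteins enter the ER as they are made, are folded there by chaperones and leave in vesicles coated with COPII. Procollagen is a long, stiff trimer that needs special help to enter these vesicles, and matrix-producing cells are known for an extensive ER. When unfolded proteins build up, the unfolded protein response (UPR) raises chaperones through the factors ATF6 and XBP1, while the related factors CREB3L1 and CREB3L2 are known from mouse bone and cartilage to raise collagen and COPII genes. The 5 genes of fibrillar collagens I, III and V rose together at E18, and the question was whether the folding and export genes followed them.

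Values are TPM, a length-normalized abundance with the same total in each library. Reads recovered from the TPM steps came to 14586260 to 18280340 per library at E18 and 21128612 to 22624483 at E16, lower in every E18 library than in any E16 library, and the members' values rested on 40 reads (Creb3l1) to 8072 reads (Hspa5). All 12 mesenchymal markers checked, Col1a1 and Col3a1 among them, were detected in every library. They summed to 1794 to 4771 TPM at E18 and 322.5 to 642 TPM at E16, most of it from Col1a1 and Col3a1. Tagln itself stood at only 2.86 to 3.37 TPM at E18 and 0.606 to 1.4 TPM at E16. Of the exon length of Tagln, 67.9% lies under genes of the opposite strand. The libraries were not pure: 12 erythroid markers summed to 10936 to 19007 TPM at E18 and 5249 to 7099 TPM at E16, and 12 hepatocyte markers, none at 0 in any library, to 385 to 1021 TPM at E18 and 2252 to 9199 TPM at E16. Of 8 plasma and B cell markers Jchain was listed at 0 in all 6 libraries, as were Adgre1 and C1qa of 6 macrophage markers. Of 6 endothelial markers Cdh5 was listed at 0 in every E16 library. Some other members of these lists were detected in every library. Cd68 was at 34.6 to 108 TPM at E18 and 41.2 to 55.9 TPM at E16. Lyz2 was at 4.82 to 8.53 TPM at E18 and 0.445 to 1.88 TPM at E16. Egfl7 was at 12.5 to 22.5 TPM at E18 and 26.2 to 39.2 TPM at E16. Sdc1 was at 10.2 to 18.3 TPM at E18 and 19.6 to 27.7 TPM at E16. The markers at 0 thus do not show that these cell types were absent. In the order given, the 3 lists summed to 16.3 to 28.2, 45.7 to 116 and 17.6 to 24.8 TPM at E18. At E16 they summed to 20.4 to 32.6, 43.0 to 57.5 and 27.6 to 40.9 TPM. In such bulk samples a change in the share of a cell type and a change in RNA per cell cannot be told apart.

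Promoter windows of 250 bases before to 50 bases after the start, from RefSeq on GRCm38.p6, were available for 9 of the 10 genes (all but Creb3l1) and were searched on both strands. The ER stress response element, the letters CCAAT and CCACG with 9 bases between them, through which ATF6 and XBP1 act on chaperone genes, was in 0.119% of 32851 windows, among them those of Hspa5 (bases -65 to -47 from the RefSeq start) and Hsp90b1 (-212 to -194, and in reverse at -107 to -89). The letters TGACGTGG, the UPR element that XBP1 and factors of the CREB3 family can bind, were in 0.676% of windows, among them those of Sec24d (-26 to -19), Kdelr3 (in reverse, -30 to -23) and Sec23a (7 to 14). The shorter core TGACGTG, which is part of every TGACGTGG, was in 2.01% of windows and also in those of Mia3 (-86 to -80) and Hspa5 (-157 to -151). The cyclic AMP response element TGACGTCA, in 1.79% of windows, was in 0 of the 9, and the windows of Pdia4, Xbp1 and Creb3l2 held none of the 4 motifs. The stretches are shown because these elements are the ones known to tie such genes to the UPR; capitals mark the fixed letters of the elements, and the rest is lower case.
Hspa5 (chr2:34771920-34772089, plus strand): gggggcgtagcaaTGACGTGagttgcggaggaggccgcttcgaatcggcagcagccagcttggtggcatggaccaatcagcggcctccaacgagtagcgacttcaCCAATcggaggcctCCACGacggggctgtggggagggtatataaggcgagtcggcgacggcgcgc
Hsp90b1 (chr10:86705445-86705669, minus strand): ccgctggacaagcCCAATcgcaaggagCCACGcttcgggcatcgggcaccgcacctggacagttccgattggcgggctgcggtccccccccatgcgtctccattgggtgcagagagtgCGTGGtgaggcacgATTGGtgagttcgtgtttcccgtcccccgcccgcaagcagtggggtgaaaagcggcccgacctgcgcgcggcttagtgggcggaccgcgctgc
Sec24d (chr3:123267396-123267495, plus strand): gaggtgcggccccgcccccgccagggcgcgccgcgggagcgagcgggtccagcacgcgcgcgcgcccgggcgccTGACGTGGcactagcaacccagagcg
Kdelr3 (chr15:79516308-79516407, plus strand): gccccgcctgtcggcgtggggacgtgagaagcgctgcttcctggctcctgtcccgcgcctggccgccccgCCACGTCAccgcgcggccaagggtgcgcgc
Sec23a (chr12:59011993-59012022, minus strand): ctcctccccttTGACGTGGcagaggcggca
Mia3 (chr1:183369596-183369695, minus strand): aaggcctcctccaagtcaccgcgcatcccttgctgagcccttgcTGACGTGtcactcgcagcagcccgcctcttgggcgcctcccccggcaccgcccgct
A match is a description of the letters and not evidence of binding. GENCODE M21 places the start of Hspa5 120 bases, that of Hsp90b1 65 bases and that of Sec24d 41 bases before the RefSeq start, so the elements nearest the start in Hspa5 and Sec24d lie inside the GENCODE gene.

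None of the 10 genes passed the test across all genes, whereas the fibrillar collagens did. With only 10 genes, a count of 0 is near the share over all tested genes and is not read as particular to the members. Limma called 0 of the 10 members at an adjusted p under 0.05, against 3.47% of the 17824 genes tested, and 5 of 5 fibrillar collagens, all higher at E18. By direction, 3.08% of tested genes were called higher and 0.387% lower. At an unadjusted p under 0.05 there were 6 members, 4 higher and 2 lower, against 20.9% of all genes (15.2% higher and 5.65% lower). The members differed in direction: 4 had all 3 E18 values above the 3 E16 values, against 18.4% of tested genes, and 2 had all E18 values below, against 8.05%, together 6 against 26.5%. The median of their log2 fold changes stood at 0.37, where all tested genes had 0.07 and the fibrillar collagens 2.51. The call depended on the method: voom on the recovered reads, chosen after the data were seen, called 4 members (Creb3l1, Creb3l2 and Sec24d higher, Pdia4 lower), against 8.23% of genes (7.24% higher and 0.988% lower). Array weights called 7 members, 5 higher and 2 lower, against 24.2% of genes (15.7% higher and 8.53% lower). With the 5 fibrillar collagens, too, the call was not stable to the loss of 1 library: 0 were called without E18 replicate A, E18 replicate B, E16 replicate A, E16 replicate B or E16 replicate C.

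**Figure D1:**
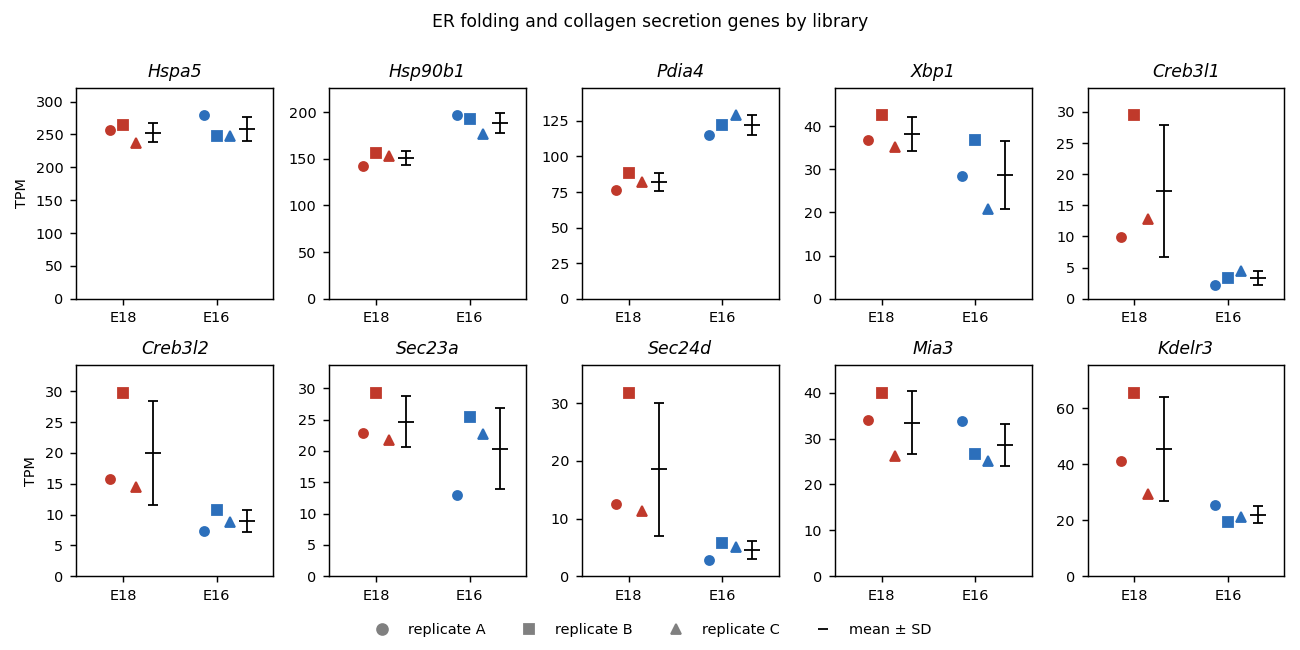
TPM of each of the 10 genes in the 3 E18 and 3 E16 libraries; symbols mark the library letter and bars the mean ± SD (n = 3), each panel with its own axis from 0. Creb3l1, Creb3l2, Sec24d and Kdelr3 lie higher in every E18 library than in any E16 library, Hsp90b1 and Pdia4 lower, and E18 replicate B is the highest E18 library in all 10 panels.

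Among the transcription factors, Creb3l1 and Creb3l2 stood higher at E18. Creb3l1 (chromosome 2, 91982328 to 92024502, minus strand, mm10) encodes OASIS, an ER-membrane factor that drives type I collagen transcription in mouse bone. It was at 9.84, 29.5 and 12.8 TPM in E18 libraries A to C, and at 2.25, 3.30 and 4.39 TPM in E16 libraries A to C. The days did not overlap, and E18 replicate B was far above the other E18 libraries. The mean was 17.4 ± 10.6 TPM at E18 and 3.31 ± 1.07 TPM at E16 (SD, n = 3 each), which is 1.97 ± 0.43 (SE) on the log2 scale and above the threshold of 0.05 (limma adjusted p = 0.0534). It was the largest difference of the 10, and leaving out E18 replicate B lowered it to 1.53 ± 0.33. Its reads numbered 40 to 351 per library.

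Creb3l2 (chromosome 6, 37327255 to 37442146, minus strand) encodes BBF2H7, which in mouse cartilage activates Sec23a. Its level was 15.8, 29.8 and 14.5 TPM in E18 libraries A to C against 7.36, 10.8 and 8.76 TPM in E16 libraries A to C. Again the days did not overlap and E18 replicate B was the highest. The log2 fold change was 1.02 ± 0.30 with a 95% interval of 0.31 to 1.74 (limma adjusted p = 0.11).

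Xbp1 (chromosome 11, 5520659 to 5525893, plus strand) encodes the factor that the sensor IRE1 activates by splicing; gene-level TPM does not separate the spliced form. It was at 36.8, 42.6 and 35.2 TPM in E18 libraries A to C, and at 28.4, 36.7 and 20.9 TPM in E16 libraries A to C. The days overlapped, since E16 replicate B lay above E18 replicate C. The log2 fold change was 0.43 ± 0.22 (limma adjusted p = 0.318).

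None of the ER chaperones was called, and none had a positive fold change. Hspa5 (chromosome 2, 34771970 to 34777547, plus strand), which encodes BiP, the main ER Hsp70 and a standard readout of ER stress, was at 257, 265 and 237 TPM in E18 libraries A to C. In E16 libraries A to C it was at 280, 248 and 248 TPM. The days overlapped, and the 95% interval of the fold ran from 0.797 to 1.20 (log2 fold change -0.03 ± 0.13; limma adjusted p = 0.926). Hspa5 had the highest level of the 10 genes on both days.

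Hsp90b1 (chromosome 10, 86690209 to 86705509, minus strand) encodes GRP94, the ER Hsp90. It was at 142, 157 and 153 TPM in E18 libraries A to C and at 197, 193 and 176 TPM in E16 libraries A to C. Every E18 value lay below every E16 value, but the log2 fold change of -0.32 ± 0.12 did not pass (limma adjusted p = 0.175). Pdia4 (chromosome 6, 47796141 to 47813430, minus strand), the disulfide isomerase ERp72, was at 76.1, 88.7 and 82.1 TPM in E18 libraries A to C and at 115, 122 and 129 TPM in E16 libraries A to C. These values did not overlap either, with means of 82.3 ± 6.31 TPM at E18 and 122 ± 7.03 TPM at E16 (SD, n = 3 each). The log2 fold change was -0.56 ± 0.12, above the threshold (limma adjusted p = 0.0515), and Pdia4 was called lower with median-of-ratios scaling (limma adjusted p = 0.0363) and after rescaling without Gm26917 and mitochondrial genes (limma adjusted p = 0.0427). Across all the alternatives its adjusted p ran from 0.00392 to 0.616. Hepatocyte markers, which mark another secretory cell, summed to 385 to 1021 TPM at E18 and 2252 to 9199 TPM at E16. With the hepatocyte score, the mean log2(TPM + 1) of these markers, as a covariate the log2 fold change of Pdia4 was -0.47 ± 0.28. That of Hsp90b1 was -0.18 ± 0.27, neither called. The score was 3.25 to 4.54 at E18 and 6.14 to 7.86 at E16, so this fit cannot separate it from the day. It called 0 of all tested genes, so the lack of a call says nothing particular about these chaperones.

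Of the COPII genes, Sec24d had values that did not overlap between the days, and the other 2 had values that did. Sec24d (chromosome 3, 123267455 to 123365641, plus strand) encodes a cargo-binding coat subunit whose mutation in humans causes a brittle bone disorder. It was at 12.5, 31.8 and 11.3 TPM in E18 libraries A to C and at 2.87, 5.76 and 5.15 TPM in E16 libraries A to C. The days did not overlap, and E18 replicate B was again far above the others. Means were 18.5 ± 11.5 TPM at E18 and 4.59 ± 1.52 TPM at E16 (SD, n = 3 each), a difference of 1.69 ± 0.43 on the log2 scale (limma adjusted p = 0.0767), or of 1.24 ± 0.33 without E18 replicate B (limma adjusted p = 0.155).

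Sec23a (chromosome 12, 58958383 to 59012017, minus strand) encodes the inner coat subunit that pairs with SEC24 and is mutated in a human craniofacial disorder. It was at 22.8, 29.3 and 21.8 TPM in E18 libraries A to C against 13.0, 25.4 and 22.7 TPM in E16 libraries A to C. The days overlapped in most libraries, with E16 replicate A the low one (log2 fold change 0.30 ± 0.27, limma adjusted p = 0.596). The log2 fold change of Sec23a was 0.23 ± 0.23 after rescaling without Gm26917 and mitochondrial genes. Without E16 replicate A it was 0.02 ± 0.19. Mia3 (chromosome 1, 183326725 to 183369553, minus strand) encodes TANGO1, the ER exit site receptor that loads procollagen into COPII carriers. It was at 34.0, 40.0 and 26.3 TPM in E18 libraries A to C, and at 33.9, 26.7 and 25.2 TPM in E16 libraries A to C. These too overlapped (log2 fold change 0.21 ± 0.20; limma adjusted p = 0.631), and 1.6-fold was the upper bound of the 95% interval.

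Kdelr3 (chromosome 15, 79516411 to 79527739, plus strand) encodes one of the Golgi receptors that return KDEL-tagged chaperones such as BiP and GRP94 to the ER. It was at 41.3, 65.6 and 29.5 TPM in E18 libraries A to C, and at 25.3, 19.3 and 21.3 TPM in E16 libraries A to C. The days did not overlap, though E18 replicate C was close to E16 replicate A. Means were 45.5 ± 18.4 TPM at E18 and 22.0 ± 3.06 TPM at E16 (SD, n = 3 each), a difference of 0.95 ± 0.28 on the log2 scale (limma adjusted p = 0.112).

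**Figure D2:**
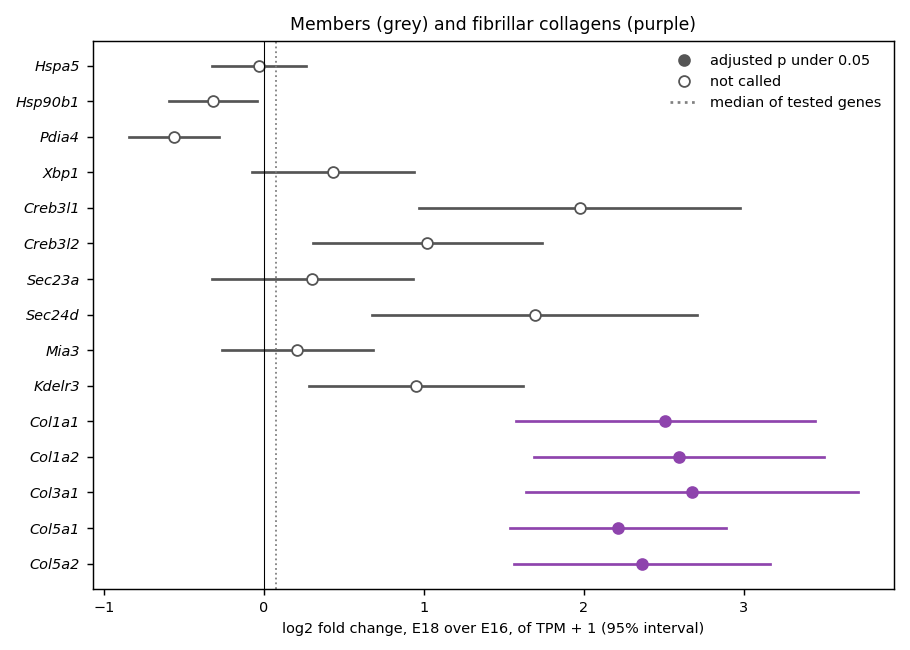
Log2 fold change of E18 over E16 on the TPM + 1 scale with its 95% interval from limma, for the 10 members and 5 fibrillar collagens; filled points have an adjusted p under 0.05. The intervals of Hspa5, Xbp1, Sec23a and Mia3 include 0, while those of the collagens lie between 1.54 and 3.71.

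Per TPM of fibrillar collagen, 9 of the 10 members were lower in every E18 library than in any E16 library, and Creb3l1 overlapped. The share of all tested genes with this pattern was not computed. In the related test given further on, 90.5% of all tested genes were called lower relative to collagen, so the count is not read as particular to the members. The 5 fibrillar collagens summed to 2491, 5392 and 2109 TPM in E18 libraries A to C and to 404, 490 and 742 TPM in E16 libraries A to C. The 10 members together summed to 648, 779 and 624 TPM in E18 libraries A to C and to 704, 691 and 662 TPM in E16 libraries A to C. The members' sum, most of it from Hspa5 and Hsp90b1, thus overlapped between the days while the collagen sum did not. The rise was not particular to collagen: limma called 11 of the 12 mesenchymal markers higher at E18, all but Tagln. Their median log2 fold change was 2.73, with Pdgfra at 2.78, Pdgfrb at 2.62, Acta2 at 3.16 and Tagln at 1.03. A lower ratio to collagen is therefore not read as a change relative to collagen alone. Per TPM of fibrillar collagen there were 0.233 ± 0.0792 TPM of members at E18 and 1.35 ± 0.429 TPM at E16 (SD, n = 3 each).

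For single genes the ratio differed widely. Creb3l1 was at 0.395, 0.547 and 0.607 TPM per 100 TPM of fibrillar collagen in E18 libraries A to C, and at 0.557, 0.673 and 0.592 TPM per 100 in E16 libraries A to C. The days overlapped, and E18 replicate A had the lowest of the 6 values. Sec24d was at 0.502, 0.590 and 0.535 TPM per 100 in E18 libraries A to C, and at 0.711, 1.18 and 0.694 TPM per 100 in E16 libraries A to C. Those days did not overlap. Hspa5, by contrast, was at 10.3, 4.91 and 11.2 TPM per 100 in E18 libraries A to C and at 69.2, 50.6 and 33.4 TPM per 100 in E16 libraries A to C.

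The difference between each gene and the mean of the 5 collagens on the log2 scale was also tested, a test added after the data were seen. In this fit all 10 members had a negative value and 8 were called lower relative to collagen at E18, against 90.5% of all tested genes (90.6% in either direction and 0.0673% higher), so the members' share was near the background. The gap was widest for Pdia4 (log2 -3.03 ± 0.54; limma adjusted p = 0.000342) and Hsp90b1 (-2.79 ± 0.55; limma adjusted p = 0.000398). For Kdelr3 and Creb3l2 it was -1.52 ± 0.52 and -1.45 ± 0.50 (limma adjusted p = 0.00946 and 0.0112); the adjusted p was 0.0826 for Kdelr3 without E16 replicate A and 0.0685 for Creb3l2 without E16 replicate B. No difference from collagen was called for Creb3l1 (-0.50, 95% interval -1.54 to 0.55; limma adjusted p = 0.344) or Sec24d (-0.78, 95% interval -1.82 to 0.27; limma adjusted p = 0.145). These intervals are wide and do not show that either gene equals collagen. With a pseudocount of 5, similar in size to the E16 TPM of both genes, both passed (limma adjusted p of 0.0393 and 0.0210). With a pseudocount of 0.1 the values were -0.25 for Creb3l1 and -0.61 for Sec24d, and neither passed (limma adjusted p of 0.628 and 0.237). All genes in this fit share the same collagen values, so its tests are not independent. The spread of those values also enters the variance of every gene, and limma pools variances over genes as if they were separate. The p-values of this fit can therefore be too small and the share of genes called too large.

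**Figure D3:**
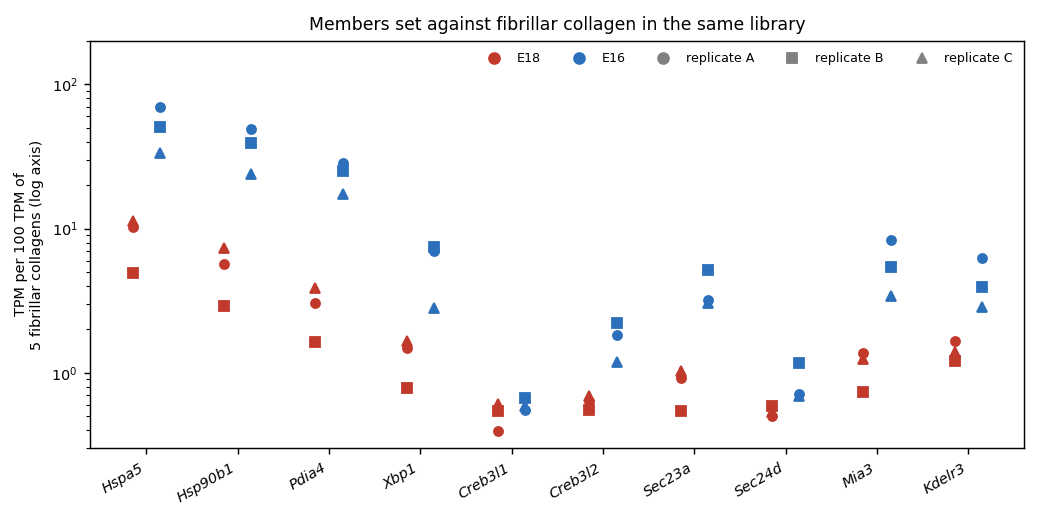
TPM of each member per 100 TPM of the 5 fibrillar collagens in the same library, on a log axis, with E18 libraries left of E16 libraries. The E18 and E16 points of Creb3l1 overlap (0.395 to 0.607 at E18, 0.557 to 0.673 at E16), those of Sec24d lie close together, and those of Hspa5, Hsp90b1 and Pdia4 lie far apart.

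Library B of E18, the library with most collagen, was also the E18 library with the highest level of all 10 members. Its mesenchymal markers summed to 4771 TPM, against 2202 TPM in E18 replicate A and 1794 TPM in E18 replicate C. That sum is mostly collagen and not a separate measure, since the list includes Col1a1 and Col3a1, at 2693 and 1268 TPM in E18 replicate B. Taken singly, every marker of the list but Tagln was highest among the E18 libraries in replicate B. Pdgfrb, which is not a collagen gene, was at 44.7, 112 and 33.1 TPM in E18 libraries A to C. Tagln was at 3.19, 2.86 and 3.37 TPM in the same libraries. The hepatocyte sum of E18 replicate B, 863 TPM, and its erythroid sum, 18233 TPM, lay between those of the other E18 libraries. At E16 the library with most collagen was replicate C, where Creb3l1 and Pdia4 had their highest E16 level and Hspa5, Hsp90b1, Xbp1 and Mia3 their lowest. The part of the markers' difference in these results was not tested beyond the fit with the hepatocyte score. In that fit Creb3l1 had a log2 fold change of 2.47 ± 0.99 and Sec24d one of 2.37 ± 0.98, both uncalled. The score did not overlap between the days, so the fit cannot separate it from the day, and it called 0 of all tested genes.

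Within the Sec24 family, Sec24d had a larger share in every E18 library. Sec24d made up 8.37%, 19.2% and 7.02% of the summed TPM of the 4 Sec24 genes in E18 libraries A to C and 2.14%, 3.62% and 3.38% in E16 libraries A to C. This share did not overlap between the days (exact permutation test, 2-sided p = 0.1, the smallest that 3 against 3 libraries allow). The family's sum was 159 ± 8.27 TPM at E18 and 148 ± 12.9 TPM at E16 (SD, n = 3 each; exact permutation p = 0.4). Sec24c, the most abundant of the 4, was at 93.3 ± 10.9 TPM at E18 and 94.96 ± 9.54 TPM at E16, and Sec24a and Sec24b also had overlapping values (log2 fold changes of 0.06 ± 0.16 and -0.13 ± 0.17).

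Kdelr3 made up 21.5%, 29.6% and 16.5% of the 3 KDEL receptor genes in E18 libraries A to C and 18.6%, 10.9% and 11.5% in E16 libraries A to C, which overlapped (exact permutation p = 0.2). Its paralogs Kdelr1 and Kdelr2 had log2 fold changes of -0.12 ± 0.20 and 0.17 ± 0.17 (limma adjusted p = 0.797 and 0.634). Sec23a was 38.2% ± 6.53 of the Sec23 pair at E18 and 33.8% ± 5.11 at E16 (SD, n = 3 each; exact permutation p = 0.5), and Sec23b had a log2 fold change of 0.04 ± 0.16.

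Mia2 is the paralog of Mia3 whose products include the collagen export factor cTAGE5 and a liver form that exports lipoproteins. It was at 22.7, 18.7 and 22.5 TPM in E18 libraries A to C and at 29.1, 31.6 and 30.8 TPM in E16 libraries A to C, with no overlap (log2 fold change -0.50 ± 0.15; limma adjusted p = 0.103). Of the other factors of the CREB3 family, Creb3 was at 15.4 ± 4.47 TPM at E18 and 8.59 ± 3.34 TPM at E16 (limma adjusted p = 0.257), with 20.8% of its exon length under genes of the opposite strand. Creb3l3, the family's liver-enriched factor, was at 0.3005, 1.52 and 0.90 TPM in E18 libraries A to C and at 5.10, 8.44 and 2.87 TPM in E16 libraries A to C (log2 fold change -1.72 ± 0.44; limma adjusted p = 0.0771). Thus Creb3l1 and Creb3l2 lay higher in all E18 libraries and Creb3l3 lower, none of them called.

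**Figure D4:**
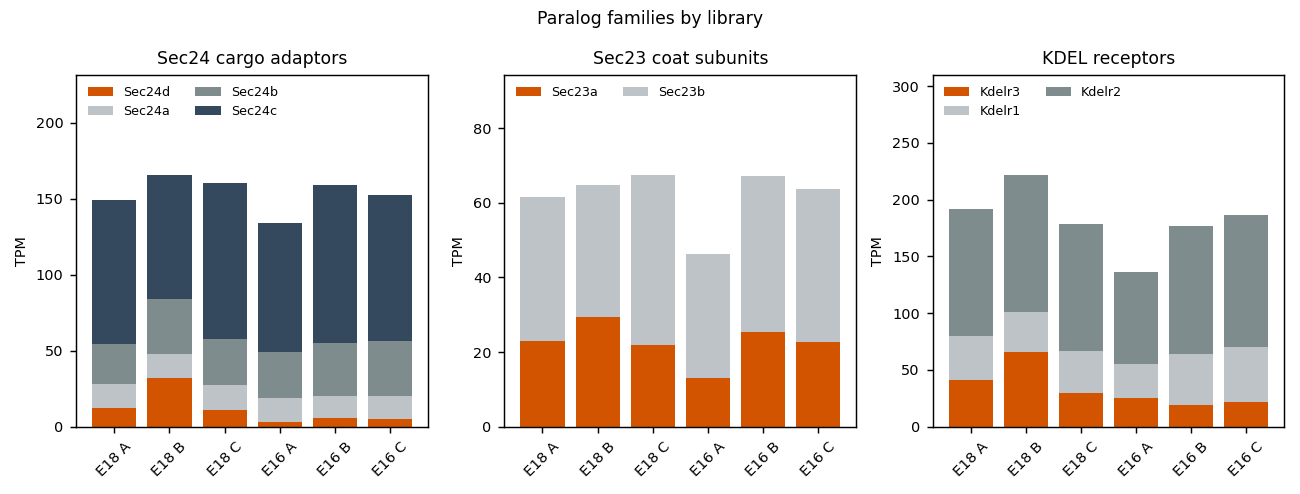
Stacked TPM of the Sec24, Sec23 and KDEL receptor families in each of the 6 libraries, with the member in orange. The orange Sec24d layer runs from 11.3 to 31.8 TPM at E18 and from 2.87 to 5.76 TPM at E16, while the family's sum is 159 ± 8.27 TPM at E18 and 148 ± 12.9 TPM at E16 (SD, n = 3 each).

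Across the wider secretory pathway the lists of 11 to 29 genes held 0 or 1 limma call each, near the 3.47% of all tested genes. Over all tested genes 20.9% had an unadjusted p under 0.05 (15.2% higher and 5.65% lower). Voom called 8.23% (7.24% higher and 0.988% lower). Of 26 ER folding genes limma called 0, and 17 of the 26 had a negative fold change, with a median of -0.12. At an unadjusted p under 0.05 there were 4, all lower, and voom called 2, both lower. These are larger shares than over all genes in that direction. All E18 values lay below all E16 values for 5 of the 26, against 8.05% of tested genes, and above for 1, against 18.4%. The genes with the smallest p were Pdia4 and Hyou1, an ER chaperone of the Hsp110 type, at 58.8 ± 8.83 TPM at E18 and 87.1 ± 5.88 TPM at E16 (SD, n = 3 each; limma adjusted p = 0.0765). Of 18 UPR sensors and factors 0 were called (4 at an unadjusted p under 0.05, 3 by voom), with a median of 0.15 and Creb3l1 and Creb3l3 at the extremes. Of 15 genes of ER-associated degradation 0 were called and 0 had an unadjusted p under 0.05 (0 by voom), the smallest p being those of the mannosidase Edem3 (log2 fold change -0.21 ± 0.12) and the lectin Erlec1 (0.43 ± 0.26).

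Of 29 genes of translocation into the ER and N-glycosylation 0 were called (3 at an unadjusted p under 0.05, 0 by voom), with a median of -0.14. Tram2, a translocon protein linked to collagen synthesis, was at 10.05 ± 4.71 TPM at E18 and 3.99 ± 1.14 TPM at E16, with no overlap (limma adjusted p = 0.146). Srp9 of the signal recognition particle was at 9.30 ± 1.43 TPM at E18 and 13.5 ± 1.19 TPM at E16 (limma adjusted p = 0.220).

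Of 27 COPII export genes 0 were called (3 at an unadjusted p under 0.05, 1 by voom), with a median of 0.06, and Sec24d and Mia2 had the smallest p. Among 15 genes of COPI retrieval 1 was called. This was Copz2, a zeta subunit of the COPI coat, which rose to 5.95, 10.5 and 6.97 TPM in E18 libraries A to C, against 1.46, 1.5 and 2.31 TPM in E16 libraries A to C (log2 fold change 1.66 ± 0.32; limma adjusted p = 0.0429). Copz2 was not called when any 1 of the 6 libraries was left out. Rer1, a retrieval receptor of the Golgi, was at 66.3 ± 8.91 TPM at E18 and 80.9 ± 9.30 TPM at E16 (limma adjusted p = 0.348). Of 11 genes of Golgi structure and vesicle fusion 0 were called (1 at an unadjusted p under 0.05, 0 by voom); Gorasp1, with 32.1% of its exon length under a gene of the opposite strand, had a log2 fold change of -0.43 ± 0.15 and the syntaxin Stx5a one of 0.31 ± 0.18.

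Among 12 ER enzymes and chaperones of collagen 2 were called, both higher, against 3.08% of tested genes, and 8 had all E18 values above all E16 values, against 18.4%. Their median log2 fold change was 1.10, and 3 had a negative one, namely Plod3 (-0.42), P4hb (-0.19) and Ppib (-0.15), a lysyl hydroxylase, the beta subunit of prolyl 4-hydroxylase and a prolyl isomerase. These 3 are named because they complete the list's directions and were chosen after their values were seen. Fkbp10, a prolyl isomerase for procollagen, rose by 2.08 ± 0.37 and Plod2, a collagen lysyl hydroxylase, by 1.91 ± 0.31 (limma adjusted p = 0.0376 and 0.0344). Both calls were lost without E16 replicate A, B or C or without E18 replicate A or B. Serpinh1, the collagen chaperone HSP47, was at 181, 390 and 143 TPM in E18 libraries A to C and at 41.5, 46.5 and 86.8 TPM in E16 libraries A to C (limma adjusted p = 0.0527), and P3h1 had a log2 fold change of 0.98 ± 0.27.

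**Figure D5:**
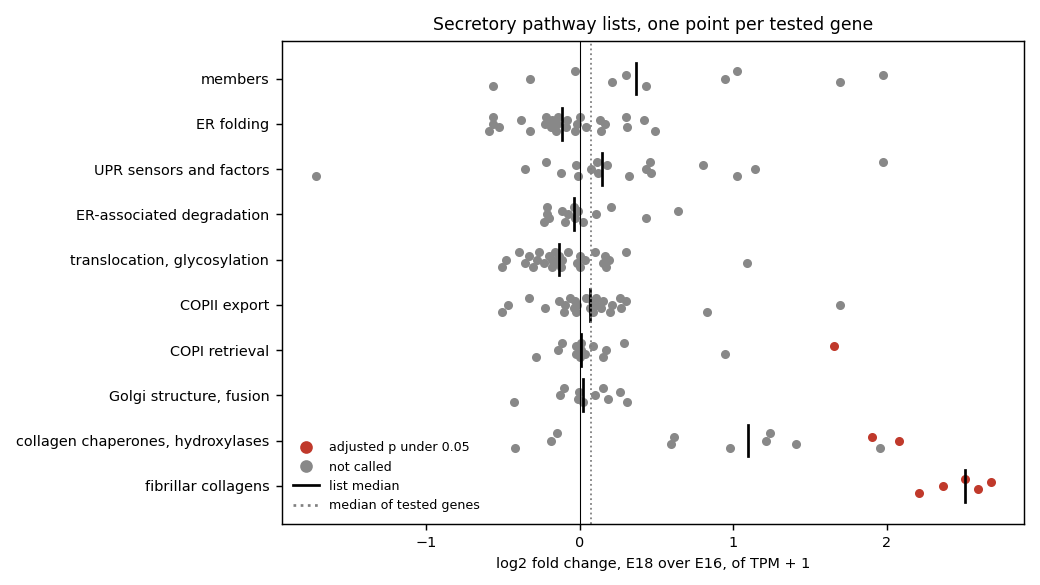
Log2 fold change of E18 over E16 on the TPM + 1 scale for every tested gene of the members and of 9 secretory pathway lists; red points have an adjusted p under 0.05 and black lines are list medians. The general lists have medians between -0.14 and 0.15, near the 0.07 of all tested genes, with single genes such as Copz2 standing out, against 1.10 for collagen enzymes and chaperones and 2.51 for fibrillar collagens.

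Over the 6 libraries Creb3l2 and Sec24d were the closest pair of members, with a Pearson correlation of log2(TPM + 1) of 0.993, followed by Creb3l1 and Sec24d at 0.978. Kdelr3 correlated at 0.879 to 0.898 with these 3 genes, while Hsp90b1 and Pdia4 correlated with each other at 0.901 and with Sec24d at -0.762 and -0.710. Mia3 was most like Kdelr3 (0.833) and Hspa5 (0.751). These values are descriptions over 6 libraries that share the difference between the days. The genes most like the 10 as a group were Grn, Ist1, Zfp513, Fbxo34 and Pofut2, with a mean correlation of 0.484 to 0.490 and negative correlations with Hsp90b1 and Pdia4; none of the 5 was called (limma adjusted p from 0.244 to 0.668).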

How the data were processed

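RNA of eYFP-positive fetal liver cells was made into stranded total RNA libraries, per the labels' protocols. The authors deposited TPM, and the submitters' processing notes name mm10, HTSeq 0.5.4p3, HISAT2 2.1.0, FastQC 0.11.7 and Bowtie, with no role for any of them. For the strand setting, the annotation release and how TPM was computed, the answer is: not given in the sources used here. Symbols were matched for 54409 of 54532 identifiers; Ero1a and Ero1b were matched through RefSeq synonyms. Positions and exon lengths came from GENCODE M21 (GRCm38, as mm10). TPM multiplied by exon length fell on multiples of a common step, to within 0.05 reads, for 96.8% to 97.1% of the values above 0, and dividing by the step recovered reads.

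The 17824 genes that reached 1 TPM in 3 or more of the 6 libraries were tested with limma (version 3.58.1, R 4.3.3), 2-sided, fitting log2(TPM + 1) with limma's trend of variance on level, with Benjamini-Hochberg adjustment over these genes; calls have an adjusted p under 0.05. Fold changes on this scale understate those of low genes. The members, lists and tests were chosen with earlier results of these data known. Named were the members, their paralogs, the fibrillar collagens, called genes of each list and the 2 uncalled genes with the smallest p, and the 5 genes above 10 TPM on average most like the members; Serpinh1 and P3h1 come under this rule. In 5 simulated data sets of 17824 genes for E18 against E16 the fit recovered 22.9% of 2-fold, 66.1% of 4-fold and 82.5% of 8-fold changes, and 3.9% of calls were false. Values were drawn for each gene independently, from a normal distribution with its residual spread, and only a small set of genes above the lowest levels was changed. The simulated libraries thus hold no shift shared by many genes, and these rates need not hold for the real libraries. Alternatives were other pseudocounts, filters and scalings, no trend, array weights, a hepatocyte covariate, the letter as a block and leaving out each library; voom on recovered reads, the fit relative to collagen and the promoter motifs were added after the data were seen. Figures used Matplotlib 3.10.9.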

Additional observations from a re-analysis of the deposited data

How the results depend on the processing

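Of the 10 members, 0 were called under 14 of the 19 alternatives; 1 was called with TPM of at least 1 in all 6 libraries (Creb3l1), 1 with median-of-ratios scaling and 1 after rescaling without Gm26917 and mitochondrial genes (Pdia4 in both), 7 with array weights and 4 with voom. Calls over all genes, 618 as reported, were 347 with a pseudocount of 5, 0 without a filter, 399 with quantile normalization, 4316 with array weights, 1465 with voom, 0 with the hepatocyte covariate, and 0 to 664 when leaving out 1 library. The higher share of calls, 88.8%, was 64.8% with array weights, 78.7% with quantile normalization and 79.4% with rescaling without Gm26917 and mitochondrial genes. With quantile normalization all tested genes had a median of -0.08 on the log2 scale, against 0.07 as reported. The replicate block by letter gave 0 calls over all genes and 0 among the members, fibrillar collagens, COPI retrieval and collagen enzymes; deviations of same-lettered libraries correlated at 0.102, -0.139 and -0.117, so the letters were not taken as pairs.

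Array weights gave 7 calls in ER folding, 5 in UPR factors, 1 in degradation, 4 in translocation, 3 in COPII, 2 in COPI, 1 in Golgi and 7 in collagen enzymes; voom gave 2 in ER folding, 3 in UPR factors, 1 in COPII and 5 in collagen enzymes. ER folding had 1 call with median-of-ratios scaling and 1 with rescaling without Gm26917 and mitochondrial genes, the rescaling gave 1 in COPII, and the all-library filter 1 in UPR factors. COPI retrieval fell to 0 with a pseudocount of 5, no filter, quantile normalization or the hepatocyte covariate; fibrillar collagens and collagen enzymes fell to 0 without a filter or with that covariate. Leaving out 1 library gave 0 to 1 calls in UPR factors, 0 to 0 in COPI retrieval, 0 to 5 in fibrillar collagens and 0 to 2 in collagen enzymes. Members per collagen TPM were 0.458 at E18 and 2.64 at E16 when divided by Col1a1 alone.

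Some signs turned, most of them of values near 0, with the cause not tested. Hspa5 was at 0.0070 with quantile normalization and 0.020 with array weights, and ran from -0.065 to 0.026 when leaving out 1 library (0.026 without E16 replicate A, 0.014 without E18 replicate C). With the hepatocyte covariate Mia3 was at -0.070, Sec24b at 0.12, Sec24c at 0.21, Kdelr1 at 0.070, Rer1 at 0.027 (-0.29 as reported) and Apoa2, a large difference of -2.74 as reported, at 0.37. Sec23b was at -0.049 with median-of-ratios scaling, -0.041 with the rescaling above and -0.038 with array weights, and ran from -0.060 to 0.12 over left-out libraries. Sec24a was at -0.023 with median-of-ratios scaling, -0.085 with quantile normalization and -0.015 with that rescaling. Over left-out libraries Sec24c ran from -0.10 to 0.066 and Kdelr1 from -0.32 to 0.015. Array weights leaned on E18 replicate A and E16 replicate C, which had weights of 3.62 and 3.76, against 0.484 to 0.605 for the other 4 libraries. Creb3l1 rested on as few as 40 reads.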

Other observations

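RNA for plasma proteins that hepatocytes export through the same pathway was lower at E18. Most of these genes, among them Afp, Apoa1, Apob, Serpina6 and Hpx, also belong to the hepatocyte markers given above. Their fall is therefore not a separate result, and a smaller share of hepatocytes in the E18 libraries cannot be told apart from less RNA per cell. Of 16 such cargo genes 6 fell (Afp, Apoa1, Apob, Serpina1b, Serpina6 and Hpx), against 0.387% of all tested genes called lower, and all 16 had a negative fold change, with a median of -2.33 on the log2 scale. Their sum was 408, 908 and 1051 TPM in E18 libraries A to C and 2858, 9520 and 2299 TPM in E16 libraries A to C. Of the uncalled ones, Serpina1a had a log2 fold change of -2.19 ± 0.46 and Apoa2 one of -2.74 ± 0.69. Fibrillar collagen thus exceeded this cargo in TPM in all 3 E18 libraries, at 2491, 5392 and 2109 TPM, and in none of the E16 libraries, at 404, 490 and 742 TPM.

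The ER stress response element was in the promoter windows of 8 of 21 ER folding genes with a window, against 0.119% of all windows, and in 0 of 10 collagen enzyme and chaperone genes and 0 of 3 fibrillar collagen genes. The letters TGACGTGG were found for 5 of 13 COPI retrieval genes and 3 of 24 COPII genes with a window, against 0.676% of all windows. The list counts are per gene and the shares over all are per window. These are counts of letters in genes listed for their known roles.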
